A study of Caenorhabditis elegans with 4 samples.

Results

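The NURF-1 binding sites described here are the peaks on chromosome II in a chromatin immunoprecipitation sequencing (ChIP-seq) study of Caenorhabditis elegans larvae. They were chosen by position alone, as every peak that the authors' combined list places on chromosome II. There are 1569 of them among 10482 peaks on the 6 nuclear chromosomes. The same chromosome carries 1370 of 9065 peaks in NURF-1 ChIP replicate 1 and 1130 of 7518 in replicate 2. The study holds 2 NURF-1 ChIP libraries and 2 input libraries, the input being DNA of chromatin that was not precipitated. All 4 libraries come from the wild-type N2 strain at the L3 larval stage, from a mixed population of males and hermaphrodites, and the series' design text gives a temperature of 20 °C. The material is therefore whole animals, in which every tissue contributes chromatin. All 4 libraries also share the same treatment, 20 minutes with the cross-linker EGS and 10 minutes with EGS plus formaldehyde. The antibody was an affinity-purified rabbit polyclonal, SDQ3528. The labels do not say whether the replicates came from separate cultures, so differences between them may be technical in part. No value of the input libraries was analysed here.

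NURF is a chromatin-remodelling complex that uses an ISWI-type ATPase to slide nucleosomes, and NURF-1 is the worm counterpart of its large subunit, called BPTF in mammals. In flies and mammals this subunit is known to recognise histone H3 trimethylated at lysine 4, a mark of active promoters. In worms nurf-1 is known for roles in vulval and reproductive development. Chromosome II is an autosome. As on the other worm autosomes, its central part is rich in conserved and broadly expressed genes, while its arms recombine more in meiosis, hold more repeats and carry more heterochromatin marks.

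Each peak has a first and a last base on the WormBase WS220 build and a score from the authors' peak caller, MACS, whose scale is not stated. The score is the peak's own value and ranks peaks within a list only. The lists hold no reads, so sequencing depth is unknown. Intervals below are 95% intervals that cover counting error over peaks. They treat peaks as independent, though many lie in groups, so they are no test of one segment against another. Chromosome II was taken to end at base 15279345, where the last peak of any list ends. It was divided into 3 segments of equal length, called left (bases 1 to 5093115), middle (5093116 to 10186230) and right (10186231 to 15279345). In the results below, arm means an outer segment and centre means the middle one. These limits were set by length alone and need not match the arms and centre defined by recombination.

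As a whole, chromosome II lay near the centre of the range of the nuclear chromosomes. Peak density in the combined list was 102.7 per Mb on II (exact Poisson interval 97.7 to 107.9), against a mean of 109.6 ± 44.7 on the other 5 (SD, n = 5; exact two-sided permutation p = 0.833 over the 6 chromosomes). Replicate 1 had 89.7 peaks per Mb on II, against a mean of 94.7 on the other 5. Replicate 2 had 73.96 on II, against 78.3. On II the peaks were 146 to 10000 bp wide with a median of 414 bp, and together they covered 6.10% of the chromosome. Scores ran from 1.49 to 210.99 with a median of 14.13. The highest-scoring 10% of all combined peaks, called strong peaks here, numbered 185 on II. That is 11.8% of the II peaks, against a background of 10.0% of all nuclear peaks. In replicate 1, 163 II peaks (11.9%) were in that list's own top 10% (background 9.99%). In replicate 2 they were 134 (11.9%, background 10.0%). These shares lie close to the background.

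Within the chromosome, peaks were unevenly placed, and the sparse part was the left arm. In 1-Mb bins counted from the left end, the combined list held 72, 64, 70 and 60 peaks in the first 4 bins. From the bin at 4 to 5 Mb onwards no full bin held fewer than 100. The median over the 15 full bins was 102 peaks. The 3 sparsest bins were those at 3 to 4 Mb with 60 peaks (Poisson interval 45.8 to 77.2), at 1 to 2 Mb with 64 (49.3 to 81.7) and at 2 to 3 Mb with 70 (54.6 to 88.4). The 3 densest were those at 11 to 12 Mb with 154 peaks (130.6 to 180.3), at 14 to 15 Mb with 127 (105.9 to 151.1) and at 13 to 14 Mb with 125 (104.05 to 148.9). These bins were picked by the same counts, so their difference is a description.

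Both replicates showed the same outline. In replicate 1 the first 4 bins held 69, 56, 52 and 54 peaks, and its densest bin, at 11 to 12 Mb, held 136. In replicate 2 they held 52, 48, 45 and 37, and the bin at 11 to 12 Mb held 111. Bin counts of the 2 replicates varied together, with Pearson's r of 0.91 and Spearman's rho of 0.79 over 15 bins. The bins are neighbours on 1 chromosome and both lists were called on the same genome, so this is a description of the lists and not a test.

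**Figure D1:**
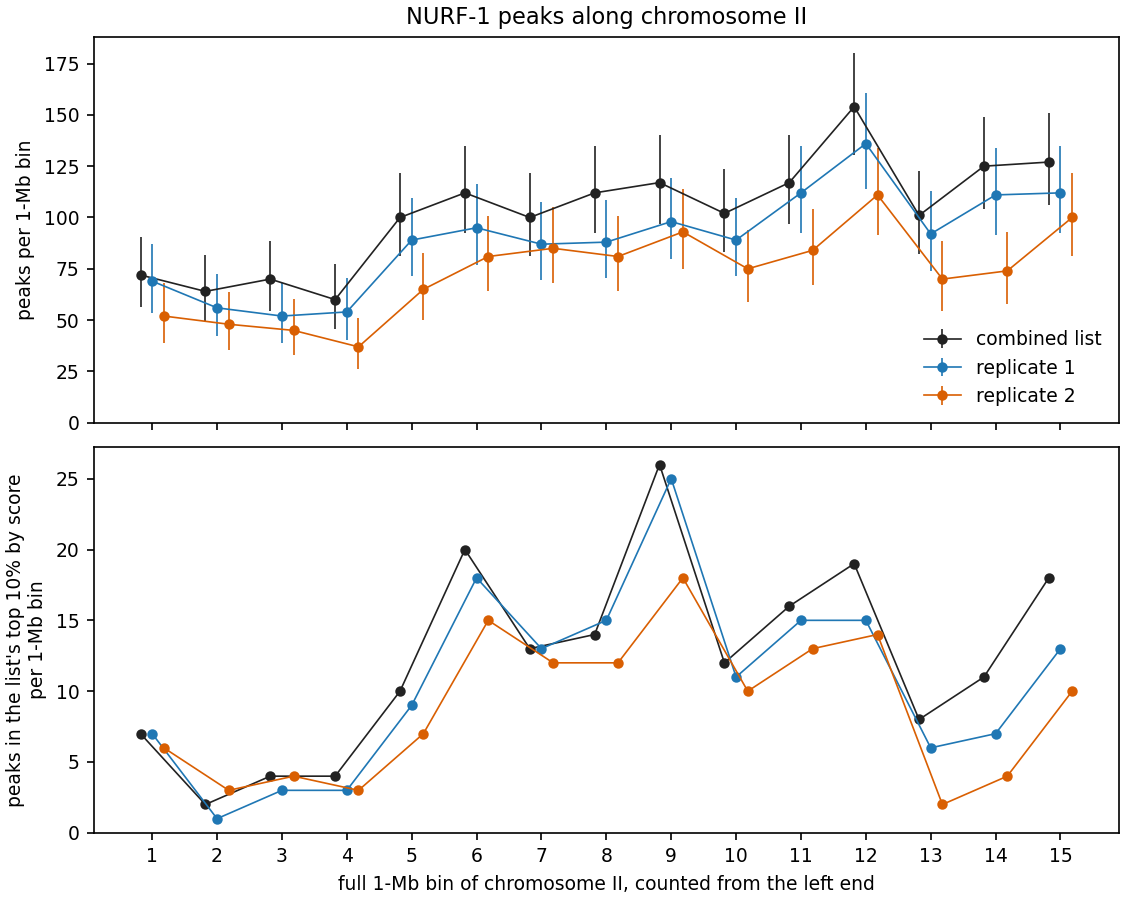
Number of NURF-1 peaks (upper panel, with 95% exact Poisson intervals) and of strong peaks (lower panel, the highest-scoring 10% of each list) per full 1-Mb bin of chromosome II, for the combined list and both replicates. In all 3 lists the first 4 bins are the lowest for all peaks, and the bin at 8 to 9 Mb, the ninth, holds the most strong peaks.

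The left segment held 379 peaks (24.2% of the II peaks) and the right segment 648 (41.3%), against 542 (34.5%) in the middle. Densities were 74.4 peaks per Mb on the left (67.1 to 82.3) and 127.2 on the right (117.6 to 137.4), against 106.4 in the middle (97.6 to 115.8). The left segment thus had 0.699 times the density of the middle (exact binomial interval 0.612 to 0.799) and the right segment 1.20 times (1.06 to 1.34). The arms therefore differed from the centre in opposite directions.

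In replicate 1 the left segment had 64.4 peaks per Mb and the right 114.5, against 90.1 in the middle. The left-to-middle ratio was 0.715 (0.618 to 0.825) and the right-to-middle ratio 1.27 (1.12 to 1.44). In replicate 2 the left segment had 50.5 and the right 90.3, against 81.1 in the middle, with ratios of 0.622 (0.530 to 0.729) and 1.11 (0.973 to 1.28). The lower left density was seen in both replicates, while the interval of the right-to-middle ratio in replicate 2 includes 1. Among combined peaks found in both replicates, the right-to-middle difference was 0.072 on the log2 scale.

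On the log2 scale the left-to-middle ratio was -0.52 on II. On the other 5 chromosomes it averaged 0.16 ± 0.29 (SD, n = 5) and ran from -0.17 to 0.46. Chromosome II had the lowest value of the 6 in each of the 3 lists. In the combined list the exact two-sided permutation p over chromosomes was 0.167, the smallest this design can give, and 1.0 after Benjamini-Hochberg adjustment over 6 such tests. The test could not have passed 0.05. With replicate 2 the exact permutation p was 0.333, since another chromosome differed more from its own remainder in the other direction. The right-to-middle log2 ratio of 0.26 on II lay inside the range of the other 5, from -0.44 to 0.35 (exact permutation p = 0.5).

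**Figure D2:**
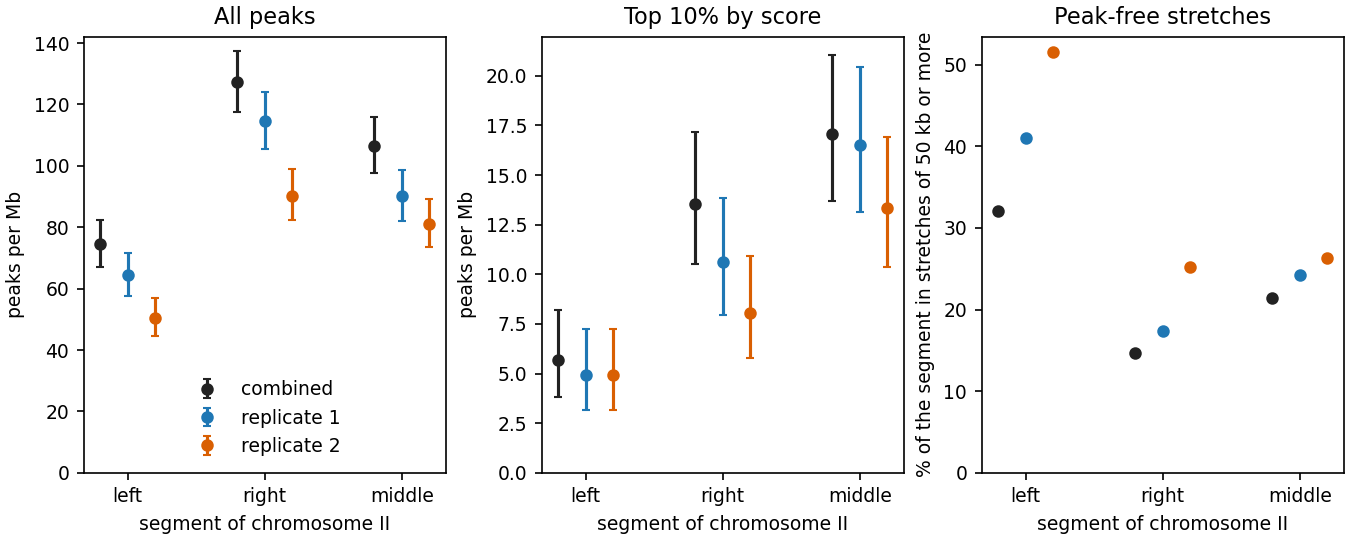
Peaks per Mb in the left, right and middle segment of chromosome II for all peaks (first panel) and for the highest-scoring 10% of each list (second panel), with 95% exact Poisson intervals, and percent of each segment lying in peak-free stretches of 50 kb or more (last panel, no interval). In the combined list and both replicates the left segment is lowest in the first 2 panels and highest in the last.

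Strong peaks were more unevenly spread than peaks at large. The left segment held 29 and the right segment 69, against 87 in the middle. This gave 5.69 strong peaks per Mb on the left (3.81 to 8.18) and 13.5 on the right (10.5 to 17.1), against 17.1 in the middle (13.7 to 21.1). The left segment had 0.333 times the strong-peak density of the middle, but 0.769 times its density of the remaining peaks. On the right the ratio was 0.793 for strong peaks and 1.27 for the remaining ones. The right arm was therefore the densest segment for weaker peaks and the middle segment for strong ones.

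The left-to-middle ratio of strong peaks was 0.298 in replicate 1, with 25 on the left and 84 in the middle. It was 0.368 in replicate 2, with 25 and 68. On the right there were 54 in replicate 1 and 41 in replicate 2. The strong-peak deficit of the left arm thus appeared in each replicate with that replicate's own scores. In the combined list the log2 left-to-middle ratio of strong peaks was -1.58 on II, against a mean of -0.50 on the other 5 chromosomes, where it ran from -0.75 to -0.22. This too was the lowest of the 6 (exact permutation p = 0.167, the smallest possible).

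Set against both arms together, the middle of II had 1.78 times the density of strong peaks (1.31 to 2.39), or 0.83 on the log2 scale. The mean on the other 5 chromosomes was 0.54 ± 0.29 (SD, n = 5; exact permutation p = 0.5). In replicate 1 the value was 1.09 on II, against a mean of 0.58 on the other 5. In replicate 2 it was 1.04, against 0.54. In each replicate alone II had the highest value of the 6 (exact permutation p = 0.167), which was not so in the combined list.

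By bin, the combined list had 7, 2, 4 and 4 strong peaks in the first 4 bins. The bin at 8 to 9 Mb had 26, the most of any, followed by 20 at 5 to 6 Mb and 19 at 11 to 12 Mb. Replicate 1 had 25 strong peaks at 8 to 9 Mb and replicate 2 had 18. The densest bin for all peaks was thus not the densest for strong ones.

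By medians, peaks in both arms were somewhat narrower and lower in score than in the middle. Only in the left arm were they also farther apart. Median widths were 349 bp on the left and 424 bp on the right, against 496 bp in the middle. Median scores were 12.77 on the left and 13.67 on the right, against 19.28 in the middle. The upper quartile of the score was 49.77 on the left and 47.76 on the right, against 102.31 in the middle. The lower quartiles were 6.31 and 6.25, against 5.45 in the middle. In replicate 2 the lower quartiles were 5.16 and 4.46, against 5.55, so their order was not the same across the lists.

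The median distance between the midpoints of neighbouring peaks was 4.88 kb on the left and 2.98 kb on the right, against 3.99 kb in the middle. In replicate 1 it was 5.83 and 3.16 kb, against 4.70 kb, and in replicate 2 6.73 and 3.599 kb, against 4.88 kb. The left-minus-middle difference of 0.89 kb was thus 1.85 kb in replicate 2, and it was 3.12 kb among combined peaks found in both replicates. In replicate 1 the median widths were 371 bp on the left and 406 bp on the right, against 574 bp in the middle. The median scores there were 13.6 and 12.3, against 29.54. In replicate 2 the median widths were 324 and 349 bp, against 423 bp, and the median scores 9.87 and 10.37, against 17.95. In both replicates each arm thus fell below the middle in width and score. Width and score are not independent of each other, with Spearman's rho of 0.80 across the 1569 II peaks. Bases covered by peaks made up 3.98% of the left segment and 7.53% of the right, against 6.80% of the middle.

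The left arm's lower density came with long stretches that held no peak at all. A peak-free stretch of 50 kb or more is called long here. The combined list left 44 such stretches on II, adding up to 3.47 Mb or 22.7% of the chromosome. By midpoint, 18 of them lay in the left segment and 11 in the right, against 15 in the middle. Long stretches took up 32.1% of the left segment and 14.7% of the right, against 21.4% of the middle. In replicate 1 the shares were 41.02% and 17.4%, against 24.2%. In replicate 2 they were 51.6% and 25.2%, against 26.3%. A list with fewer peaks has longer stretches by construction, so shares are comparable within a list only.

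The left segments of the other 5 chromosomes had 21.9% ± 12.6 (SD, n = 5) of their bases in long stretches, with a range of 7.37% to 35.1%, so the 32.1% on II fell within that range (exact permutation p = 0.833). In replicate 1 the 41.02% on II was likewise within the range of the others, which reached 46.98%. In replicate 2 the 51.6% on II was the highest of the 6, just above the 49.7% of the next chromosome (exact permutation p = 0.333). With combined peaks found in both replicates, 57.7% on II again stood just above 57.1% on the next (exact permutation p = 0.333). Counting only stretches of 100 kb or more, the left segment of II had 15.7%, against 5.54% on average on the other 5. That was the highest of the 6 (exact permutation p = 0.167, the smallest possible).

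**Figure D3:**
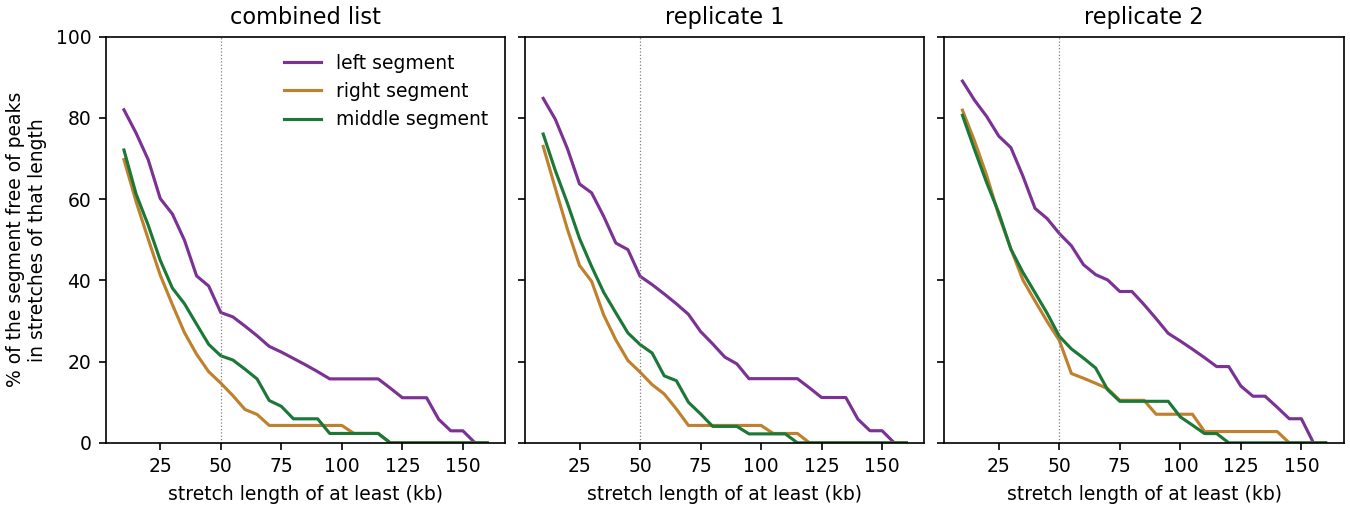
Percent of each segment of chromosome II (vertical axis) that lies in peak-free stretches of at least the length on the horizontal axis, in kb, for the combined list and both replicates. The left segment has the highest share at 50 kb (dotted line), 32.1% in the combined list, and is the segment in which the longest stretches lie.

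Of the 9 combined stretches of 100 kb or more, 6 lay in the left segment. The 5 longest on II were all there. The longest ran for 150.7 kb from 1509524 to 1660183, and the next for 144.3 kb from 1664071 to 1808386. The third ran for 135.6 kb from 2059778 to 2195387 and the fourth for 135.2 kb from 3209827 to 3345045. The last of the 5, of 120.7 kb, ran from 913652 to 1034364. No peak of either replicate lay inside any of these 5.

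The same blanks stood in each replicate with nearly the same limits. They were picked as gaps of the combined list, which is not independent of the replicate lists. On II, 97.96% of replicate 1 peaks and 94.5% of replicate 2 peaks overlapped a combined peak. The likeness of the blanks is therefore a description and not a test. The longest was 151.7 kb in replicate 1 and 151.9 kb in replicate 2. The second was 144.5 kb in replicate 1 and 150.1 kb in replicate 2. The third was 135.7 and 144.2 kb in the same lists, the fourth 136.7 and 138.5 kb, and the last of the 5 was 120.8 and 120.7 kb. The longest stretch of the right segment was 117.6 kb, from 12341774 to 12459405, and held 1 replicate 2 peak. That of the middle was 117.7 kb, from 9773428 to 9891086, and held 1 peak of each replicate. Over all 44 long stretches, 35 held no replicate peak inside. These were 16 of 18 on the left and 9 of 11 on the right, against 10 of 15 in the middle.

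The 2 longest stretches nearly touch. From 1509524 to 1808386, a span of 298.9 kb, the combined list had 3 peaks, all within the 3.89 kb between the stretches. The first, from 1660184 to 1660330, scored 4.84 and was in neither replicate. The second, at 1661194 to 1661745, scored 104.97, with 94.63 in replicate 1 and 112.09 in replicate 2. The third, at 1662931 to 1664070, scored 71.15, with 60.44 in replicate 1 and 22.12 for the higher of its 2 replicate 2 peaks. The 2 stronger peaks between the blanks were thus found in both replicates, at the 80.8 and 73.1 percentiles of replicate 1 scores. In replicate 2 they stood at the 93.4 and 63.8 percentiles, the latter for the higher of the 2 peaks.

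The part from 1 to 4 Mb, singled out after its bins were seen, held 194 combined peaks, or 64.7 per Mb (55.9 to 74.4), against 106.4 in the middle segment. It held 10 strong peaks, or 3.33 per Mb, against 17.1 in the middle. Long stretches took up 44.1% of it, against 21.4%. Replicate 1 had 54.0 peaks per Mb there and 90.1 in the middle. Replicate 2 had 43.3 and 81.1.

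The peaks of II were found again in the replicates about as often as peaks elsewhere. Of the 1569, 831 (53.0%, Wilson interval 50.5 to 55.4) overlapped a peak of both replicates by at least 1 bp, against a background of 52.9% of all nuclear peaks. Another 432 (27.5%, background 27.7%) overlapped a replicate 1 peak only, and 102 (6.50%, background 6.56%) a replicate 2 peak only. The remaining 204 (13.0%, background 12.8%) overlapped no replicate peak. The other 5 chromosomes had a mean share of 53.0% ± 1.24 (SD, n = 5) in both (exact permutation p = 1.0). Between the replicates, 878 of the 1370 replicate 1 peaks on II overlapped a replicate 2 peak (64.1%, 61.5 to 66.6, background 63.8%). In the other direction 957 of 1130 did (84.7%, 82.5 to 86.7, background 83.3%).

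The share found in both replicates was 49.3% on the left (44.3 to 54.4) and 50.9% on the right (47.1 to 54.8), against 57.9% in the middle (53.7 to 62.02). Of the replicate 1 peaks, 59.8% were shared on the left (54.4 to 64.9) and 61.4% on the right (57.4 to 65.3), against 70.6% in the middle (66.3 to 74.6). Of the replicate 2 peaks, 80.5% were shared on the left (75.3 to 84.9) and 85.7% on the right (82.2 to 88.6), against 86.2% in the middle (82.5 to 89.2). The middle segment thus had the largest shared fraction in each count. Only for replicate 1 peaks did its interval lie apart from those of both arms. Neighbouring peaks are not independent, so this is a description and not a test.

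Peaks of higher score were found again more often. All 298 II peaks that scored 100 or more and all 162 that scored 50 to 100 were in both replicates. The lower Wilson limits are 98.7% and 97.7%. Of the 456 peaks from 10 to 50, 70.0% were in both (65.6 to 74.0), and of the 653 under 10 only 7.96% were (6.12 to 10.3). Of that last band, 47.01% had a replicate 1 partner only, 13.9% a replicate 2 partner only and 31.1% no partner. The other 5 chromosomes had nearly the same shares in both replicates, 100% for 100 or more and 99.8% for 50 to 100. There 71.5% were in both from 10 to 50, and 7.65% under 10, so this pattern is not particular to II. The score of a combined peak and its presence in a replicate list come from the same libraries, so the 2 are not independent.

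The bands differ in size between segments. Peaks of 100 or more made up 13.7% of the left peaks (10.6 to 17.6) and 15.6% of the right ones (13.0 to 18.6), against 26.8% of the middle ones (23.2 to 30.6). Their share on the other 5 chromosomes together was 15.7% (15.0 to 16.5), so both arms lay near it and the middle above it. Within the band of 10 to 50, 66.7% were in both replicates on the left (57.8 to 74.5) and 66.7% on the right (60.2 to 72.6), against 79.5% in the middle (71.3 to 85.8). Elsewhere, on the other 5 chromosomes, it was 71.5%. Peaks under 10 made up 43.3% of the left peaks and 41.5% of the right, against 40.6% of the middle and 41.1% on the other 5 chromosomes.

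**Figure D4:**
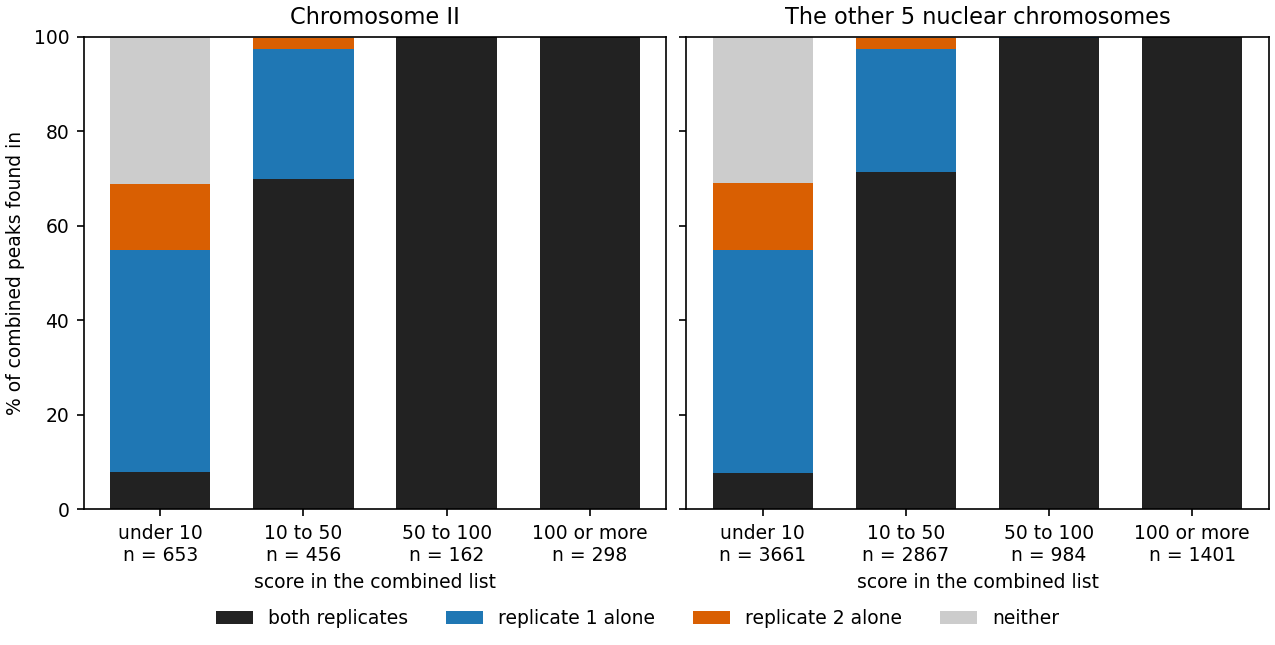
Percent of combined peaks, by score band, that overlap a peak of both replicates, of only replicate 1, of only replicate 2 or of none, on chromosome II (left) and on the other 5 nuclear chromosomes (right), with the number of peaks under each bar. On II all 460 peaks of 50 or more are in both replicates and 7.96% of those under 10 are. The other 5 chromosomes are much alike, with 100% of peaks of 100 or more, 99.8% of those from 50 to 100 and 7.65% under 10.

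Across 751 one-to-one pairs of overlapping replicate peaks on II, scores ranked alike, with Spearman's rho of 0.89 and Pearson's r of 0.84. Within segments rho was 0.88 on the left (171 pairs) and 0.85 on the right (302 pairs), against 0.92 in the middle (278 pairs). These are descriptions across peaks. The midpoints of a pair lay a median of 44.5 bp apart. Replicate 1 had the wider peak in 83.6% of pairs, by a median of 1.30 times, and this ratio was 1.31 on the left and 1.31 on the right, against 1.30 in the middle. The width gap between replicates was thus even along the chromosome.

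The strongest sites were mostly in the middle segment. Of the 10 highest-scoring II peaks of the combined list, 8 lay there, with 1 in each arm, and their widths were 826 to 1638 bp. Each was a single peak in both replicates. The highest, at 7373693 to 7374779, scored 210.99 in the combined list, with 230.44 in replicate 1 and 228.82 in replicate 2. The second, at 9745645 to 9746827, scored 203.85, 227.96 and 222.46 in the same lists. The third, at 8324880 to 8325705, scored 201.58, 211.06 and 205.05. For these 3 sites both replicates gave scores within a narrow range, all at or above the 98.9 percentile of replicate 2.

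The fourth, at 649797 to 650962, was the only one in the left segment. It scored 201.03, with 235.31 in replicate 1 and 293.85 in replicate 2, the highest of the 10 sites in each replicate. Its nearest neighbours were 15.9 kb to the left and 21.9 kb to the right. The strongest II site of replicate 1 was therefore in the peak-poor arm.

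The fifth, at 7122317 to 7123954, scored 200.33, with 211.48 in replicate 1 and 217.24 in replicate 2. It lay 129 bp from the peak to its left. The ninth, at 7104536 to 7105787, scored 183.75, with 212.81 and 168.78. These 2 sites and the highest one all lay between 7.10 and 7.37 Mb. The sixth, at 14527766 to 14528952 in the right segment, scored 191.14, with 213.45 and 176.69.

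The seventh, at 8328410 to 8330026, scored 186.52, with 187.38 in replicate 1 and 143.75 in replicate 2. The third site ended 2.70 kb before it, and 92.8 kb free of combined peaks followed it. Replicate 1 had 1 peak inside that stretch and replicate 2 had none. The eighth, at 5398468 to 5399758, scored 185.6, with 177.35 and 213.67. The tenth, at 10174102 to 10174963, scored 183.19, with 169.14 and 153.58. Over the 10 sites the percentile was 96.0 or higher in replicate 1 and 96.2 or higher in replicate 2. The order of the sites differed between the replicates, and the highest replicate 2 score on II, 300.17, belonged to none of the 10.

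**Figure D5:**
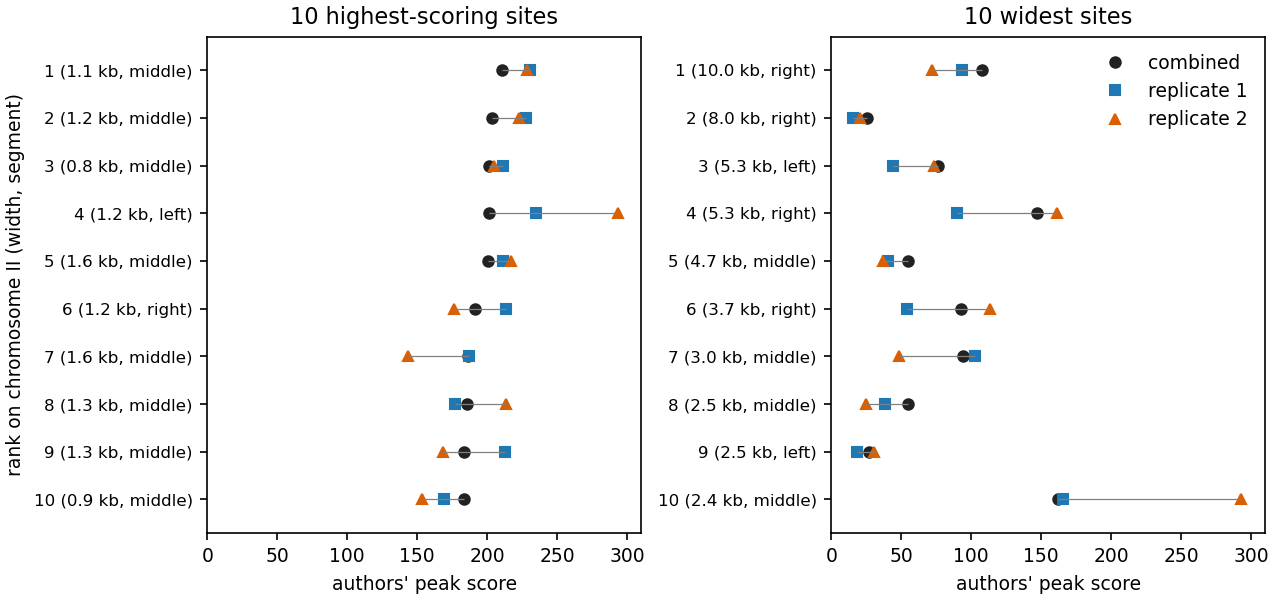
Authors' peak score (horizontal axis) of the 10 highest-scoring (left panel) and the 10 widest (right panel) peaks of chromosome II as scored in all 3 lists, with rank, width in kb and segment on the vertical axis. Where several replicate peaks overlap a site the highest score is shown. The strongest sites score 143.75 to 293.85 in the replicates, and the widest 15.39 to 292.66.

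The widest peaks were other sites. No peak was among both the 10 strongest and the 10 widest. The widest 10 measured 2387 to 10000 bp and scored 25.79 to 162.27, at the 62.7 to 97.1 percentiles of combined scores, with 4 in the middle segment, 4 in the right and 2 in the left. The combined peak of 10.0 kb at 10541661 to 10551660 (score 107.6) contained replicate 1 peaks of up to 6290 bp and replicate 2 peaks of up to 3061 bp. It began a cluster of 12 combined peaks, each less than 2 kb from the next, that reached to 10560085. This cluster of 18.4 kb held 15 replicate 1 and 20 replicate 2 peaks and was the largest on II.

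The second widest, at 14600621 to 14608599, scored 25.79, with at most 15.39 in replicate 1 and 20.45 in replicate 2. The third, at 1232958 to 1238306 in the left segment, was 5.35 kb wide and scored 76.12, with 43.93 and 73.12. It was 8 peaks in replicate 1 and 6 in replicate 2. It opened the second largest cluster, 9 combined peaks up to 1247338, with 15 replicate 1 and 13 replicate 2 peaks. The fourth, at 11756856 to 11762109, was 1 peak of 5325 bp in replicate 1 and 8 peaks in replicate 2, the widest of them 1386 bp. Its scores were 146.84, with 89.97 in replicate 1 and 161.28 in replicate 2. Thus 1 combined width can stand for a single replicate peak or for many.

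The fifth, at 8742758 to 8747447, was 2 peaks in each replicate and scored 54.9, with 40.79 and 37.19. The sixth, at 14404770 to 14408443, was 2 peaks in replicate 1 and 4 in replicate 2. It scored 92.52, with 54.46 and 113.57. The seventh, at 5377125 to 5380110, was 3 peaks in each and scored 94.08, with 103.06 and 48.37. The eighth, at 6346585 to 6349122, scored 54.8, with 38.11 and 24.85. The ninth, at 694193 to 696644 in the left segment, scored 27.06, with 18.49 and 30.28. The tenth, at 10033054 to 10035440, was 1 peak in each replicate and scored 162.27, with 165.62 and 292.66. Of the widest 10 it was the only one that neither replicate split and the highest in score.

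Peaks of 1.5 kb or more numbered 67 on II (4.27%, 3.38 to 5.39), against a background of 4.05% of all nuclear peaks. All 67 were found in both replicates, and their median score was 112.96. The share in both replicates was not computed for peaks this wide on the other chromosomes, so the count is not a trait of II. The left segment held 15 of the 67 and the right 26, against 26 in the middle, and their median scores were 76.12 and 110.65, against 143.08.

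The right segment had the largest share of short intervals between peaks and the left segment the largest share of long ones. Of the 1568 intervals between neighbouring combined peaks, 20.9% (18.98 to 23.0) were under 0.5 kb and 2.81% were 50 kb or more. The smallest was 51 bp. Intervals under 0.5 kb made up 16.7% on the left (13.2 to 20.8) and 25.3% on the right (22.1 to 28.8), against 18.6% in the middle (15.6 to 22.1). In replicate 1 these shares were 16.8% and 22.0%, against 15.9%, and in replicate 2 14.5% and 24.4%, against 16.9%. The order of left and middle was thus not the same across the lists. Intervals of 10 to 50 kb made up 27.2% on the left and 19.6% on the right, against 22.5% in the middle.

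Joining peaks less than 2 kb apart gave 908 groups on II, of which 582 (64.1%) were single peaks. There were 47.5 groups per Mb on the left and 66.95 on the right, against 63.8 in the middle. Groups of 5 or more peaks numbered 5 on the left and 27 on the right, against 14 in the middle. In replicate 1 they numbered 2 and 18, against 8, and in replicate 2 1 and 12, against 4. Relative to the middle, the right segment thus had 1.20 times the peaks and 1.05 times the groups, a ratio of groups that was 1.06 in replicate 1 and 0.967 in replicate 2. The left segment had 0.699 times the peaks and 0.745 times the groups.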

How the data were processed

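The data are 3 lists of NURF-1 peaks, 1 for each of 2 ChIP replicates and 1 combined. Per the file headers, MACS called the peaks on WormBase WS220. The submitters' processing notes name BWA and ce10. Versions, thresholds, the use of the input and the making of the combined list are not stated there. The authors deposited a score for each peak without its scale.

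A peak was placed by its midpoint, and peaks sharing at least 1 bp counted as overlapping. Shares carry Wilson intervals, densities exact Poisson intervals and density ratios exact binomial intervals, all at 95%. Chromosome II was set against the other 5 by an exact permutation over 6 chromosomes, which come from the same libraries. Of the 6 tests, adjusted together (every adjusted p was 1.0), the left-to-middle and right-to-middle ones were added to the planned 4. The functions for overlap, counts per segment, peak-free stretches and the permutation were tested on simulated lists. Those for intervals, covered bases, shares in long stretches and the highest-scoring peaks were not.

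Named sites are the 10 highest-scoring and 10 widest peaks, the 5 longest stretches, the longest per segment, the 3 densest and 3 sparsest bins and the outermost peaks. Members, lists and alternatives were chosen with earlier results of these data known. Genes and sequences under peaks were not analysed here, since coordinates of WBcel235, the build of the available gene table, were not mixed with those of WS220. The work used matplotlib 3.10.9, scipy 1.17.1, pandas 2.3.3 and numpy 2.4.6 under Python 3.11.15.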

Additional observations from a re-analysis of the deposited data

How the results depend on the processing

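Of 62 alternative values for 12 results, 37 left the result as reported, in direction and in interval or call. No test could pass 0.05, so only directions could change in the comparisons with other chromosomes. The II-to-other density ratio of 0.937 became 1.13 with the top 10% by score. The share of II peaks in both replicates moved from just above the mean of the others to just below it with midpoints within 200 bp (47.7%). Neither difference was significant in any setting, and the cause was not tested. The left-to-middle log2 ratio of -0.52 stayed negative in every setting: -0.75 with peaks in both replicates, -0.74 with the top 50%, -1.58 with the top 10%, -0.77 with covered bases, -0.71 with outer segments of 0.25 and a middle one of 0.5 of the chromosome, and -0.68 to -0.48 without either replicate. The right-to-middle log2 ratio of 0.26 was 0.072 with peaks in both replicates and -0.33 with the top 10%, and 0.16 to 0.35 without either replicate. Of replicate 1 peaks, 49.3% were shared at a 50% reciprocal overlap, 58.03% with midpoints within 200 bp, 76.98% in the top 50% of each list and 72.4% with equal numbers of top peaks. Of replicate 2 peaks the shares were 59.8%, 70.4%, 91.3% and 81.3%. The middle-to-outer log2 ratio of strong peaks, 0.83, ran from 1.04 to 1.09 without either replicate. It was 1.49 with peaks in both replicates and 1.48 with the top 5%, where II was the highest of the 6. The left segment's share in long stretches, 32.1%, ran from 41.02% to 51.6% without either replicate and was 57.7% with peaks in both, 58.05% with the top 50%, 96.1% with the top 10% and 56.4% at 30 kb, settings with fewer peaks or a lower length limit. The left-minus-middle distance was 4.76 kb with the top 50% and 92.8 kb with the top 10%. The ratio of densest to sparsest bin, 2.57, was 5.28 with 0.5 Mb bins, whose sparsest began at 1.5 Mb with 18 peaks. No paired analysis was possible because only the ChIP libraries have values here, so no numbered pair exists. Without reads, a missing partner may be a peak just under the calling threshold.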

Other observations

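The outermost peaks of II differed between the lists. The first combined peak ran from 18502 to 19544 with a score of 73.12 and overlapped the first peak of replicate 1 (18577 to 19520, score 69.97). Replicate 2 began with a peak at 1 to 230 (score 8.39) and ended with one at 15279082 to 15279345 (score 8.43). The last combined peak lay at 15266283 to 15266581 (score 11.53) and the last replicate 1 peak at 15266274 to 15266485 (score 7.87).

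Over the whole chromosome, peaks at the edge of a long peak-free stretch were close to the others in median score and in replicate sharing. The 85 combined peaks on II that bound a stretch of 50 kb or more had a median score of 13.6, against 14.13 for the 1484 others, and median widths of 362 and 415.5 bp. Of the edge peaks 52.9% were in both replicates (42.4 to 63.2), against 53.0% of the others (50.4 to 55.5).

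Replicate 2 had 1 run on II of at least 5 neighbouring peaks without a replicate 1 partner, each less than 2 kb from the next. It held 6 peaks from 8287610 to 8292637 with a median score of 6.28 and a median midpoint distance of 901 bp, and 2 of the 6 were in the combined list. Replicate 1 had 0 such runs on II. A group of 9 combined peaks in 5.64 kb at 5335322 to 5340956 had a highest score of 13.15, with 3 peaks in replicate 1 and 5 in replicate 2. Both were picked after seeing their values.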
